A study of Mus musculus with 6 samples.

Results

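Mip, Lim2, Gja3 and Gja1 encode membrane proteins of the lens, and their rows were taken by gene name from the deposited count table, where all 4 were found among 13024 genes. They were measured in RNA-Seq of whole E14.5 mouse lenses in 6 libraries of a mixed C57BL/6 and FVB background. Each library came from 10 lenses pooled from 5 embryos, with 3 pools of Gata3 CKO lenses and 3 of control lenses. The CKO embryos were Gata3 f/f and carried Pax6-Cre, in which a Pax6 enhancer and promoter drive Cre recombinase in the head ectoderm that gives rise to lens and cornea, and Cre removes exon 4 of Gata3. The sample labels call the control pools wild type, while the study describes them in one place as Gata3 f/wt and in another as Gata3 f/f, both without Cre, so an effect of Cre cannot be told apart from one of Gata3 loss. The pools were numbered 1 to 3 in each group as in the sample titles.

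The lens is built of a single-layered epithelium over a mass of elongated fibre cells, and it has no blood supply of its own. Water, ions and small metabolites move between its cells through membrane channels. Mip encodes aquaporin-0, a water channel and adhesion protein of the fibre cell membrane. Lim2 encodes a tetraspan protein of fibre cell junctions that belongs to the PMP22 and claudin superfamily. Gja3 encodes a connexin of the gap junctions between fibre cells. Gja1 encodes the connexin that is typical of the lens epithelium and is also made in many other cell types, fibroblasts and vessel cells among them. Loss or mutation of the fibre genes is known to cause cataract.

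The promoter sequences of the 4 genes are shown because 3 of them varied together between pools and because Gata3 is a factor that binds DNA. They are the 250 bases before the start site in RefSeq on GRCm38, the assembly of mm10, written 5′ to 3′ along the gene's strand. Both strands were searched for the words of GATA factors, which are AGATAA with its variant AGATAG and likewise TGATAA with its variant TGATAG. Also searched were the half-site of MAF factors (TGCTGA), the site of the factor AP-1 (TGANTCA) and the CCAAT box. Capitals mark the matches, none of which overlap each other. The Mip promoter was read at chr10:128225560-128225809 (forward strand), that of Lim2 at chr7:43429849-43430098 (forward), that of Gja3 at chr14:57058031-57058280 (reverse) and that of Gja1 at chr10:56377050-56377299 (forward).
Mip: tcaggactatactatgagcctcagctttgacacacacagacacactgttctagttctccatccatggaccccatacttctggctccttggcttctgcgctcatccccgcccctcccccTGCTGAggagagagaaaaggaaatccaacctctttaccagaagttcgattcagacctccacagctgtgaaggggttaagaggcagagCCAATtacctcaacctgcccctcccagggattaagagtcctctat
Lim2: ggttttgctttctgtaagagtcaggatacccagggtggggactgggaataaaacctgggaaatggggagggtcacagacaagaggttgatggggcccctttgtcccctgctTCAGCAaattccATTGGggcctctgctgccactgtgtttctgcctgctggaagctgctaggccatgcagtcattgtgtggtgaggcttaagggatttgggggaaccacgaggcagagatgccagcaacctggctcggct
Gja3: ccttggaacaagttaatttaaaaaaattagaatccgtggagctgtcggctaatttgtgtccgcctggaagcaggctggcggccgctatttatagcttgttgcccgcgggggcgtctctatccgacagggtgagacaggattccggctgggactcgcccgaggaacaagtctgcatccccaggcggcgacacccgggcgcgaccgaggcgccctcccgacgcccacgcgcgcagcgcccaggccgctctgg
Gja1: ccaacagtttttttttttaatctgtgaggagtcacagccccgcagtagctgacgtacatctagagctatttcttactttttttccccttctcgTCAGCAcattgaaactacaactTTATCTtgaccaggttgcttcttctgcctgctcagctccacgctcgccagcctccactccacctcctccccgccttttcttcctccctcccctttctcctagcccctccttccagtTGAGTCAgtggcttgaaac
The GATA words were matched 1 time in the Gja1 window and 0 times in those of Mip, Lim2 and Gja3. Over 32851 promoter windows of the same length, 26.5% hold at least 1 GATA word. The MAF half-site was matched once each in the windows of Mip, Lim2 and Gja1, against 16.1% of all windows. The CCAAT box was matched in Mip and Lim2 (33.8% of all windows) and the AP-1 word in Gja1 (6.75%). The Gja3 window held no match, and RefSeq lists a second Gja3 start site, whose window held none either. A match here is only a run of letters.

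The genes differ in their structure. Mip lies on chromosome 10 (128225838–128231812, forward strand) and its RefSeq transcript has 4 exons and 789 coding bases. Lim2 lies on chromosome 7 (43427670–43435996, forward strand) with 5 exons and 519 coding bases. Gja3 lies on chromosome 14 (57034460–57058100, reverse strand) and Gja1 on chromosome 10 (56377330–56402513, forward strand), each with 2 exons in the transcript tied to RefSeq and with 1251 and 1146 coding bases. On the strand opposite Mip, GENCODE places a non-coding gene, Gm26847, which shares 1223 bases with Mip exons. The libraries were stranded per the labels, but whether the counting used strand is not given in the sources used here, and the part of that transcript in the Mip count was not tested. No other gene overlapped the RefSeq transcripts of the 4 genes.

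Between 15157230 and 18811104 fragments were counted per library. Crystallin genes, the defining genes of the lens, took 16.5% of the counts in control replicate 2 and between 5.47% and 9.31% in the other 5 libraries. The Gata3 count was 156 to 386 in the control libraries and 894 to 1064 in those labelled CKO. The count of the targeted gene was thus not lower in CKO. A count per gene does not show which exons were read and so does not check the deletion. The study assessed it over the deleted part itself. It reported the exon as excised in the RNA-Seq reads of mutant lenses and, by qPCR on independent pools, Gata3 as strongly reduced. CKO below means the libraries labelled as such. Collagen and other mesenchyme markers set control replicate 1 and CKO replicate 2 apart from the other libraries, with summed levels given beside Gja1 below.

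Mip was the most abundant of the 4 genes per exon length. Its level was 3903, 8073 and 2769 CPM in control replicates 1, 2 and 3, where CPM is the count scaled to a common library size by edgeR's TMM factors. In the libraries labelled CKO it was 3168, 2727 and 2294 CPM. CKO replicates 2 and 3 were below every control pool, but CKO replicate 1 was above control replicate 3, so the groups overlapped. The means were 4915 ± 2793 CPM in control and 2730 ± 437 CPM in CKO (SD, n = 3 each), which gave a log2 difference in edgeR of -0.85 (SE 0.39, 95% interval -1.80 to 0.10) with an adjusted p of 1.0 in the edgeR quasi-likelihood fit. Without control replicate 2 the log2 fold change of Mip was -0.28.

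Lim2 showed the largest difference of the 4. Control replicates 1, 2 and 3 held 758, 1613 and 565 CPM of it, and the CKO libraries 566, 458 and 406 CPM. Only CKO replicate 1 reached the lowest control pool, and it exceeded that pool by less than 2 CPM. The means were 979 ± 558 CPM and 477 ± 81.9 CPM (SD, n = 3 each), which gave a log2 difference in edgeR of -1.04 (SE 0.39, 95% interval -1.97 to -0.11). The edgeR quasi-likelihood fit gave it an unadjusted p-value of 0.0337 and an adjusted one of 1.0. Without control replicate 2 the log2 fold change of Lim2 was -0.46. Leaving out any single library kept it below 0, between -1.31 and -0.46.

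Gja3, the fibre connexin, had 411, 878 and 310 CPM in control replicates 1, 2 and 3. In the libraries labelled CKO it had 374, 321 and 295 CPM. All 3 CKO values fell inside or just under the span between control replicates 1 and 3. The means were 533 ± 303 CPM and 330 ± 40.6 CPM (SD, n = 3 each), which gave a log2 difference in edgeR of -0.69 (SE 0.37, 95% interval -1.59 to 0.21) with an adjusted p of 1.0 in the edgeR quasi-likelihood fit. Without control replicate 2 it was -0.12, so most of the difference in Gja3 rested on that pool.

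Gja1, the epithelial connexin, was the least abundant per exon length and varied in another way. Control replicates 1, 2 and 3 held 319, 340 and 196 CPM of it, and the CKO libraries 200, 274 and 194 CPM. The high pools were control replicates 1 and 2 and CKO replicate 2, and the other 3 pools differed by less than 7 CPM. The means were 285 ± 77.6 CPM and 223 ± 44.7 CPM (SD, n = 3 each), which gave a log2 difference in edgeR of -0.36 (SE 0.24, 95% interval -0.92 to 0.21) with an adjusted p of 1.0 in the edgeR quasi-likelihood fit. It was -0.20 without control replicate 2 and -0.56 without control replicate 3.

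**Figure D1:**
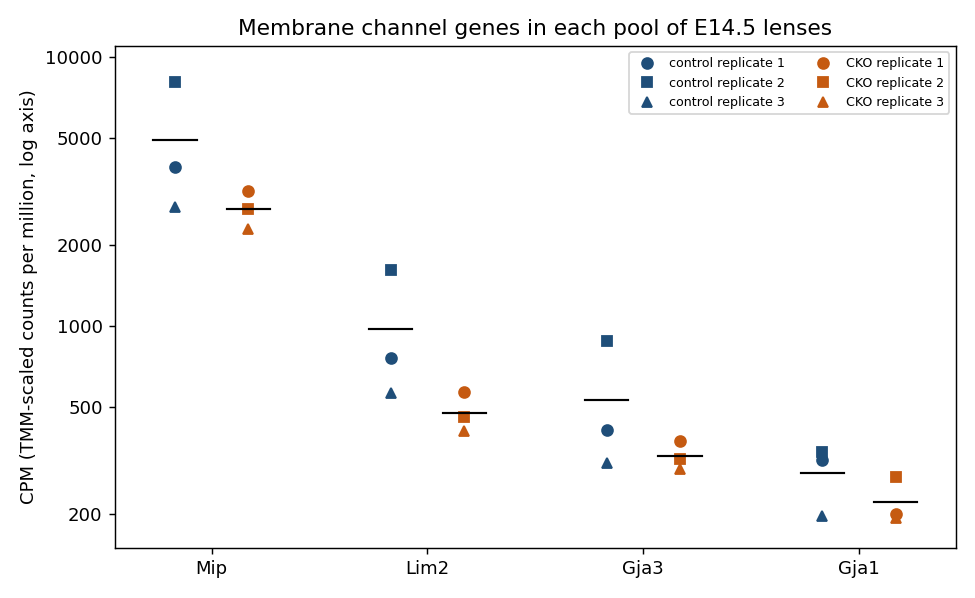
CPM on a log axis for Mip, Lim2, Gja3 and Gja1 in each of the 6 libraries (blue, control; orange, CKO; symbols give the replicate number; bars are group means of 3 pools). Control replicate 2 is the highest pool for all 4 genes, by a small margin for Gja1 (340 against 319 CPM), and the groups overlap for every gene.

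None of the 4 genes was called at an adjusted p-value of 0.05. The background was the same: edgeR called 0 of the 12879 genes tested (0%), 457 had an unadjusted p-value under 0.05 (3.55%, with 2.24% lower and 1.3% higher), limma voom called 0 and DESeq2's Wald test called 85 (0.66%). Lim2 was the only one of the 4 with an unadjusted p under 0.05 in edgeR. With DESeq2's Wald test the unadjusted p-values of Mip, Lim2, Gja3 and Gja1 were 0.0163, 0.00338, 0.0472 and 0.144, and the lowest adjusted one was 0.265, for Lim2. Over all alternatives run the adjusted p-values were 0.450 to 1.0 for Mip, 0.265 to 1.0 for Lim2, 0.50 to 1.0 for Gja3 and 0.450 to 1.0 for Gja1. All 4 had a log2 fold change under 0, as 49.4% of all genes did, and 3 of the 4 were under -0.5, against 3.18%. Those 3, Mip, Lim2 and Gja3, varied together between pools and were highest in control replicate 2. Without that pool they were at -0.28, -0.46 and -0.12, and none was under -0.5. In 0 of the 4 genes were all CKO values apart from all control values, against 8.36% of all genes tested.

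**Figure D2:**
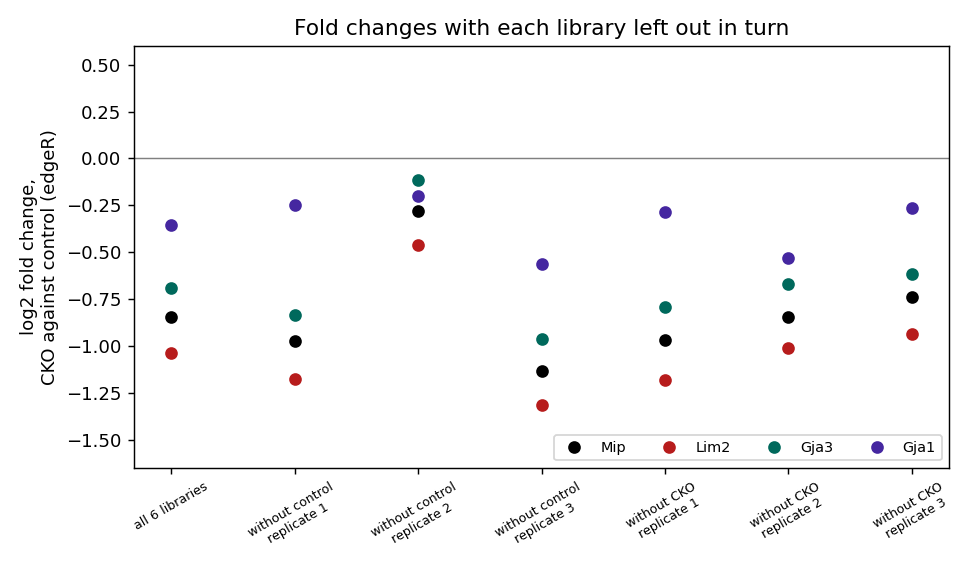
Log2 fold change of CKO against control from edgeR for Mip, Lim2, Gja3 and Gja1 with all 6 libraries and with each left out in turn. Leaving out control replicate 2 moves Mip from -0.85 to -0.28, Lim2 from -1.04 to -0.46 and Gja3 from -0.69 to -0.12, and all values stay below 0.

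In control lenses the fibre membrane genes kept nearly fixed proportions to each other although their levels did not. Control replicate 2 held 2.42 times as much Mip as the mean of the other control pools, 2.44 times as much Lim2 and 2.44 times as much Gja3, but 1.32 times as much Gja1. Crystallins were highest in the same pool. In bulk tissue a smaller share of fibre cells and less RNA per fibre cell cannot be told apart. Ratios of counts within 1 library do not depend on library size, and they were therefore compared over all 6 pairs of the 4 genes (log2 with 0.5 added to each count, exact two-sided permutation test, where 3 pools against 3 allow no p-value below 0.1). The 3 pairs without Gja1 were added after the counts had been seen.

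The ratio of Gja3 to Lim2 was 0.542, 0.544 and 0.548 in control replicates 1, 2 and 3. In the libraries labelled CKO it was 0.661, 0.701 and 0.726. The control pools were close to each other (SD 0.0080 on the log2 scale, n = 3), and every CKO pool lay above them. The difference was 0.35 on the log2 scale, or 1.28-fold (exact permutation test, p = 0.1, the smallest possible, and 0.2 adjusted over the 6 ratios). Lim2 counts were also lower relative to Mip counts. Their ratio was 0.194, 0.1998 and 0.204 in control and 0.179, 0.168 and 0.177 in CKO, a log2 difference of -0.19 with no overlap (exact permutation test, p = 0.1). Of all genes tested, 0.59% had a ratio to Mip that was below the control range in all CKO libraries. The ratio of Gja3 to Mip was 0.105, 0.109 and 0.112 in control and 0.118, 0.118 and 0.128 in CKO, a log2 difference of 0.16, again with no overlap. A ratio to Mip above the control range in all CKO libraries was found for 14% of all genes, and a ratio to Lim2 above it for 41.6%, so the direction that Gja3 took against Lim2 was that of many genes. No member had a ratio to Lim2 below the control range throughout (0.443% of all genes). Ratios to Gja3 below it were found for Mip and Lim2, against 0.691% of all genes. These are the Gja3 ratios above turned over and no separate result. No member had a ratio to Gja3 above the control range throughout (8.45% of all genes).

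Leaving out any single library gave log2 differences of 0.32 to 0.39 for Gja3 to Lim2, -0.21 to -0.16 for Lim2 to Mip and 0.12 to 0.18 for Gja3 to Mip. The 3 pairs kept their direction in every subset of 5 libraries, but groups without overlap cannot do otherwise, so this is no further support. The difference for Gja3 to Lim2 also follows from those of the other pairs and is no separate result. An edgeR fit of all genes with the Mip count as library size, chosen after seeing the data, called 18 of 12878 genes, and none of the other 3 was among them. In that fit the adjusted p was 0.719 for Lim2 (log2 fold change -0.19), 0.765 for Gja3 (0.16) and 0.530 for Gja1 (0.35).

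**Figure D3:**
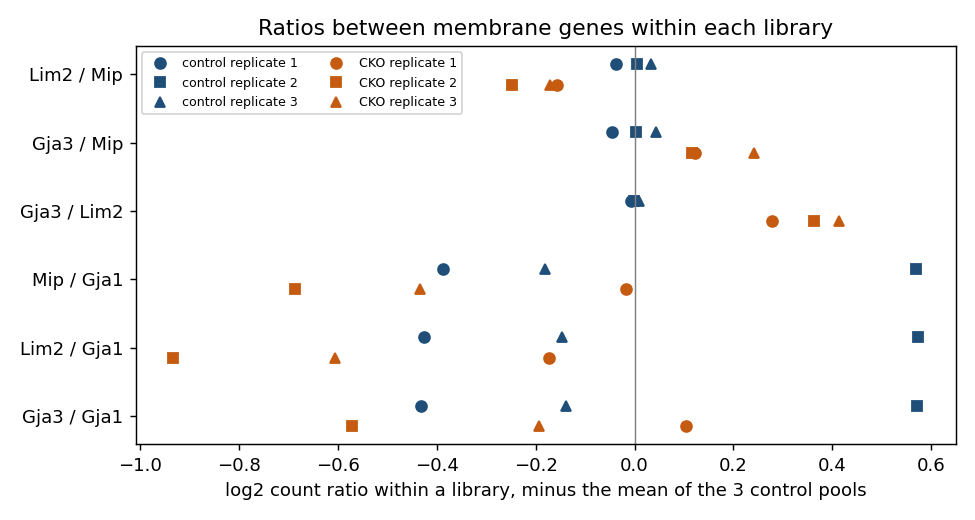
Log2 count ratio within each library, minus the mean of the 3 control pools, for the 6 pairs of Mip, Lim2, Gja3 and Gja1 (blue, control; orange, CKO; symbols give the replicate number). Pairs of fibre genes sit close to 0 in control and away from 0 in CKO, from -0.19 on average for Lim2 to Mip up to 0.35 for Gja3 to Lim2, whereas the ratios to Gja1 overlap between the groups.

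Gja1 was used as the epithelial reference against which the fibre genes were set. There were 12.2, 23.8 and 14.1 Mip counts per Gja1 count in control replicates 1, 2 and 3, while the CKO libraries had 15.8, 9.95 and 11.8. CKO replicate 1 was above 2 of the control pools. The log2 difference was -0.38 for Mip to Gja1 (exact permutation test, p = 0.4), -0.57 for Lim2 to Gja1 (p = 0.2) and -0.22 for Gja3 to Gja1 (p = 0.6). Without control replicate 2 these were -0.09, -0.28 and 0.067. None of the 3 had ratios to Gja1 wholly above or wholly below the control range, against 3.73% and 0.707% of all genes. The ratios of the fibre genes to Gja1 thus overlapped between the groups. Those of the pairs of fibre genes, added after the counts had been seen, did not overlap, but no permutation test of 3 pools against 3 could call either.

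Markers of some other tissues moved with Gja1, and those of retina did not. Vessel markers, all 7 of them tested, summed to 326 and 316 CPM in control replicates 1 and 2 and to 286 CPM in CKO replicate 2, against 229 to 256 CPM in the other 3 libraries. Macrophage markers, also 7 of 7, summed to 107, 142 and 90.8 CPM in the same 3 pools and to 66.4 to 75.0 CPM in the others. Both lists were thus high in the 3 pools with high Gja1, and no marker of either was at 0. The median log2 fold change was -0.39 for vessel markers, with 6 of 7 below 0, and -0.44 for macrophage markers, with 7 of 7 below 0. Surface ectoderm markers, also 7 of 7, summed to 106, 93.7 and 161 CPM in those 3 pools and to 44.4 to 75.4 CPM elsewhere. Their median log2 fold change was 0.34, with 4 of 7 above 0. Mesenchyme markers, of which 9 of 10 were in the table and none was at 0, summed to 2149 CPM in control replicate 1 and 3867 CPM in CKO replicate 2, against 228 to 472 CPM in the other 4 libraries. These are 2 of the 3 pools with high Gja1. The third, control replicate 2, had 440 CPM of these markers and the highest crystallin share. Pigment cell markers summed to 496 and 494 CPM in control replicate 1 and CKO replicate 2 and to 132 to 210 CPM elsewhere. Without these 2 libraries, a choice made after seeing the data, the log2 fold change of Gja1 was -0.43 with an adjusted p of 1.0 in the edgeR quasi-likelihood fit. Lens epithelium markers, all 7 of which were tested, summed to 1375 to 1626 CPM in control and 1337 to 1397 CPM in CKO, and the median of their log2 fold changes was -0.23 (0.05 when control replicate 2 was left out). Retina markers, all 10 of which were tested, went the other way from Gja1. They summed to 1284 and 825 CPM in control replicates 1 and 2 and to 1206 CPM in CKO replicate 2. In control replicate 3 they summed to 1805 CPM, and in CKO replicates 1 and 3 to 1328 and 1671 CPM. The part of other tissue in the Gja1 level was not tested further.

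Relative to the summed crystallin counts of the same library, Mip and Lim2 differed little between the groups. The log2 difference of the ratio to crystallins was 0.09 for Mip, -0.10 for Lim2, 0.25 for Gja3 and 0.47 for Gja1. Mip, Lim2 and Gja3 had ratios without overlap (exact permutation test, p = 0.1 each, 0.133 adjusted over 4 ratios), Mip and Gja3 above the control range and Lim2 below it. Of the tested genes other than crystallins, 18.8% had such a ratio above and 0.451% below. The Gja1 ratios to crystallins overlapped (exact permutation test, p = 0.4). Crystallins themselves had a median log2 fold change of -1.19 (-0.63 when control replicate 2 was left out). The study reported some of them as downregulated in these data, so higher ratios to their sum were in part set by this denominator. Of the 16, 15 were lower, against 49.4% of all genes tested. An unadjusted p under 0.05 in edgeR was found for 10 of the 16, all lower, against 2.24% of all genes. Set against 11 other lens fibre genes, whose median log2 fold change was -1.55, all of the 4 genes had higher mean ratios in CKO. The log2 differences were then 0.42 for Mip, 0.23 for Lim2, 0.58 for Gja3 and 0.80 for Gja1, so the sign for Lim2 depended on the fibre genes it was set against. This list includes beaded filament genes and Dnase2b. The study reported Dnase2b and some others of the list as downregulated in these data. Higher ratios to the list were thus in part set by its choice. Without control replicate 2 its median was -1.08, with 4 of the 11 genes higher and 7 lower.

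Between genes, levels were compared per length, as RPKM over the exon bases of the GENCODE transcript tied to RefSeq. In control the RPKM was 2293 ± 1303 for Mip, 1107 ± 631 for Lim2, 193 ± 110 for Gja3 and 92.8 ± 25.3 for Gja1 (SD, n = 3). In the libraries labelled CKO the same genes had 1273 ± 204, 539 ± 92.7, 119 ± 14.7 and 72.5 ± 14.55 RPKM (SD, n = 3). This order held within each of the 6 libraries. Across control pools the ranges of Mip (1292 to 3765 RPKM) and Lim2 (639 to 1825 RPKM) overlapped, while across CKO pools no neighbours in the order of the 4 genes overlapped. These lengths are not those of the authors' counting, and a different 3′ end would move a gene's RPKM in all libraries alike.

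The genes whose pattern over the 6 libraries was most like each of the 4 were found by the SD of the log2 ratio to it, among 10417 other genes with a mean of at least 10 CPM. For Mip they were Gss, Crybb1, Slc24a4, Cryba1 and Tmcc3, with SDs of 0.0519 to 0.0705, where the median over all genes compared was 0.663. For Lim2 they were Pygm, Cela1, Slc24a4, Snx22 and Crygn, with SDs of 0.0415 to 0.0831 against a median of 0.729. Pygm encodes muscle glycogen phosphorylase, Slc24a4 a sodium, potassium and calcium exchanger, and Crybb1, Cryba1 and Crygn are crystallin genes. For Gja3 they were Arsi, Cap2, Sptb, Kcnj11 and Fam46c, with SDs of 0.0533 to 0.0801 against a median of 0.60. Sptb encodes a spectrin of the membrane skeleton and Kcnj11 a potassium channel subunit. For Gja1 they were Abca9, Nkd2, Fzd4, Colec12 and Apoe, with SDs of 0.0423 to 0.0977 against a median of 0.395. Slc24a4 was shared by the lists of Mip and Lim2, and the lists of Gja3 and Gja1 shared no gene with the others.

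Connexins and pannexins form the channels of gap junctions and single membranes. Of 22 such genes listed, 9 were in the table and all were tested. The log2 fold changes had a median of -0.17 and ran from -0.69, for Gja3, to 0.39, for Gjb2, with 5 below 0 and 4 above, and over all 12879 genes the median was 0.0019. None of the 9 had an unadjusted p under 0.05 in edgeR, and the median was 0.018 without control replicate 2 (5 above 0, 4 below). Gje1, another member of the connexin family, had 292, 531 and 189 CPM in control replicates 1, 2 and 3, against 282, 225 and 190 CPM in CKO (log2 fold change -0.54, SE 0.37). Its pattern was high in control replicate 2, as that of Gja3 was. Gjc1, a connexin of heart, muscle and nervous tissue, had 52.6 to 77.4 CPM in control and 67.3 to 70.8 CPM in CKO and was lowest in control replicate 2. Gja4 and Gja5, the connexins of arterial endothelium, stayed below 10 CPM in all libraries. Panx1 had 24.7 to 38.7 CPM in control and 29.4 to 38.1 CPM in CKO.

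Of 12 aquaporin genes listed, 3 were in the table. Beside Mip, Aqp1, a water channel of vessels and red blood cells among others, had 39.7, 11.6 and 6.65 CPM in control replicates 1, 2 and 3, against 7.78, 42.0 and 5.57 CPM in CKO. The high pools were the 2 with high mesenchyme markers. Its log2 fold change was -0.06 with a 95% interval of -2.32 to 2.19. Aqp11 had 2.57 to 5.64 CPM over the 6 libraries. The 3 genes were each below 0 in their log2 fold change (2 of 3 without control replicate 2, and 1 of 3 when the libraries were scaled by total counts alone).

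Of 29 genes listed for Lim2's superfamily of PMP22-like proteins and claudins, 15 were in the table and tested. The median log2 fold change was -0.08, with 10 below 0 and 5 above (8 and 7 without control replicate 2, and 6 and 9 with a median of 0.06 when the libraries were scaled by total counts alone). Lim2, Pmp22 and Cldn19, 3 of the 15, had an unadjusted p under 0.05 in edgeR, all lower, against 2.24% of all genes tested. None had an adjusted p under 0.05. Without control replicate 2 only 1 gene of the list, Lim2, had such an unadjusted p (0.0499 in the edgeR quasi-likelihood fit). It was lower, as were 323 of all 12879 genes at that cutoff. Pmp22, known as a peripheral myelin protein, had 91.8, 171 and 62.6 CPM in control replicates 1, 2 and 3, against 62.7, 63.4 and 53.0 CPM in CKO (log2 fold change -0.86, SE 0.35). Its highest pool was again control replicate 2, and the groups overlapped by less than 1 CPM. Cldn19, a claudin of kidney and eye, was lower in every CKO library than in every control library, with 1.69 to 2.03 CPM against 2.51 to 4.79 CPM (4.69% of all genes tested had such groups). Cldnd1, a claudin-related gene, was above in every CKO library, with 56.1 to 64.0 CPM against 48.8 to 55.1 CPM (log2 fold change 0.19, 3.67% of all genes in this direction). Cldn10 was counted 13, 5 and 0 times in control and 14, 23 and 19 times in CKO. It was thus also above in every CKO library, at few counts, which made 2 of the 15 genes in this direction. Emp1, an epithelial membrane protein gene, followed the mesenchyme-rich pools with 65.9 CPM in control replicate 1 and 73.5 CPM in CKO replicate 2.

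**Figure D4:**
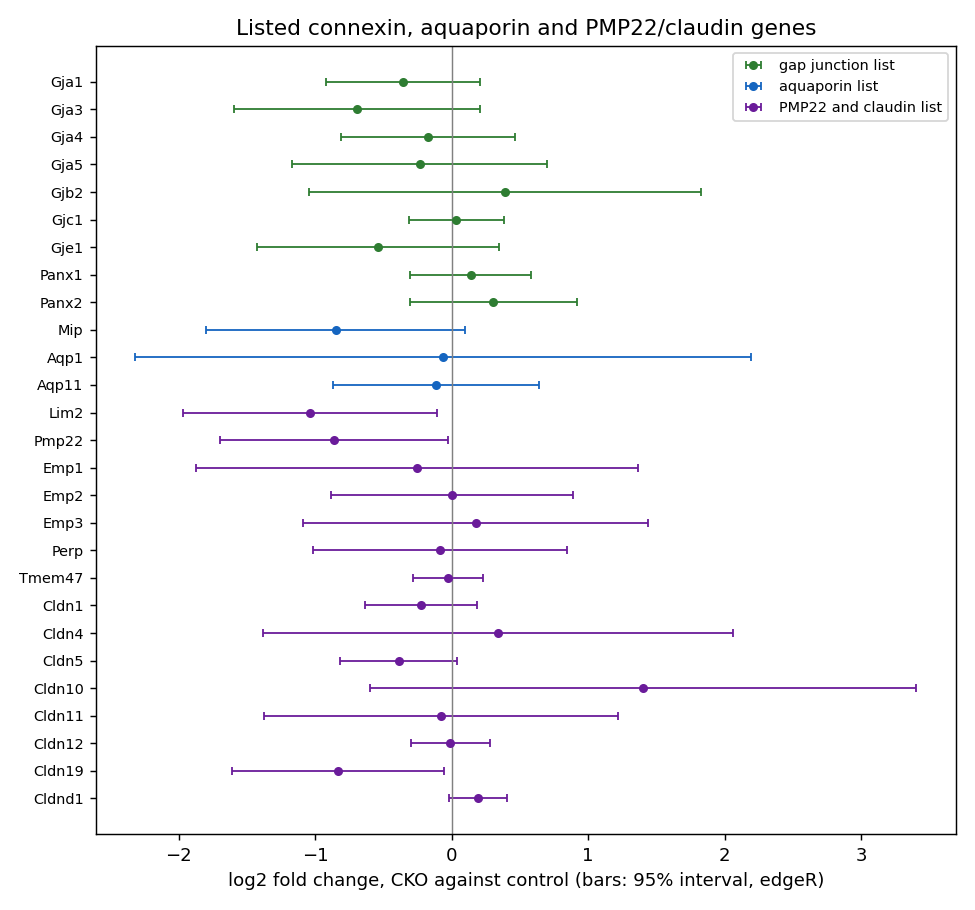
Log2 fold change of CKO against control with its 95% interval from edgeR for the 27 genes of the connexin and pannexin, aquaporin, and PMP22 and claudin lists that were in the count table. Intervals of Lim2, Pmp22 and Cldn19 lie below 0 before adjustment over all genes, and all others span 0.

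Genes whose products bind or regulate these channels were also listed. Of 17 listed, 16 were in the table and 15 were tested, and Akap2, which encodes an anchoring protein for protein kinase A, was left out with at most 1 count per library. The median log2 fold change was 0.02 and none had an unadjusted p under 0.05 in edgeR. Calm2 and Calm3, which encode calmodulin, a protein that binds aquaporin-0 and connexins, had log2 fold changes of 0.10 and 0.12. Tjp1, which encodes the scaffold of junctions that binds connexins, had 428, 661 and 371 CPM in control replicates 1, 2 and 3, against 422, 398 and 338 CPM in CKO (log2 fold change -0.34, SE 0.22). Ezr, which encodes a linker of membrane and actin, had a log2 fold change of -0.07, and it was highest in control replicate 2 with 785 CPM. Prkca, a protein kinase C gene, had the lowest value of the list, -0.54 (SE 0.28), and Nov, a secreted protein that binds connexins, the highest, 1.09 (SE 0.50), at 1.06 to 4.58 CPM.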

How the data were processed

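Lenses of E14.5 embryos were measured by RNA-Seq in 3 pools labelled CKO and 3 control pools. Per the study's methods, the authors aligned the reads with TopHat 2.0.13 to mm10, counted fragments per RefSeq gene with HTSeq 0.6.1 and deposited raw counts for those genes whose mean FPKM exceeded 1 in control or CKO. The libraries were poly(A)-selected and stranded per the labels; the strand and overlap settings of the counting are not given in the sources used here. The table holds no values other than counts of these 6 samples.

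TMM scaling and a robust quasi-likelihood fit were done with edgeR 4.0.16 in R 4.3.3 on genes that reached 10 counts in 3 or more libraries, with Benjamini-Hochberg adjustment over all genes at 0.05. Standard errors and 95% intervals were derived from the F statistics. The test was tried on simulated data. Ratios of counts were compared by exact permutation tests in scipy 1.17.1. DESeq2 1.42.0, limma 3.58.1 voom, other scalings, filters, a replicate block and each library left out in turn were alternatives. With 3 pools a group, the spread between pools and not counting error sets the precision. Positions and lengths came from GENCODE M21 (GRCm38) and promoters from RefSeq (GRCm38.p6), which matched all 4 genes.

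Named genes are the 4 genes, the measured genes of the connexin, aquaporin, PMP22 and claudin, and partner lists, Gata3, and the 5 genes most like each of the 4. Some genes of these lists are not reported here and were left out of the counts by list. Genes and lists were chosen with earlier results of these data known.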

Additional observations from a re-analysis of the deposited data

How the results depend on the processing

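The sign of the log2 fold changes of Mip, Lim2, Gja3 and Gja1 was below 0 under all alternatives run, and none was called under any. With each library left out in turn they were -1.13 to -0.28 for Mip, -1.31 to -0.46 for Lim2, -0.97 to -0.12 for Gja3 and -0.56 to -0.20 for Gja1. The number of genes called was 0 in edgeR, 85 with DESeq2, 79 with DESeq2 and a prior, 1 with total counts only and 0 to 8 with each library left out (8 without control replicate 2, 1 without control replicate 3). With DESeq2's prior, which shrinks fold changes, the values of Mip, Lim2, Gja3 and Gja1 were -0.31, -0.38, -0.26 and -0.20. Total counts only moved the median of all genes to 0.10, and 191 genes were lower and 428 higher at an unadjusted p under 0.05, against 289 and 168 with TMM. Lim2 to crystallins reversed to 0.23 with the lens fibre list as denominator. Without control replicate 2, Gja3 to Gja1 reversed to 0.067. The cause was not tested. With each library left out, Mip to Gja1 was -0.57 to -0.09, Lim2 to Gja1 -0.78 to -0.28 and Gja3 to Gja1 -0.44 to 0.067, and the ratios to crystallins were 0.06 to 0.11 for Mip, -0.13 to -0.07 for Lim2, 0.22 to 0.29 for Gja3 and 0.19 to 0.67 for Gja1. With the replicate number as a block, Mip, Lim2, Gja3 and Gja1 were -0.71, -0.90, -0.55 and -0.33 and 0 genes were called. Same-numbered pools correlated at -0.51, 0.09 and 0.48 in their deviations from the group means, and only the pools numbered 3 correlated best with each other. The numbers are those of the titles, and the deposited counts number the CKO pools otherwise. Whether same-numbered pools shared anything beyond a number cannot be told from these correlations.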
